A study of Homo sapiens with 6 samples.

Results

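The comparison asked how far the transcriptional and splicing response to ESRP1 or ESRP2 differed between PANC-1 and MIA-PaCa2, which are established human cell lines from pancreatic cancer. For each gene the difference between the ESRP library and the control library of PANC-1 was taken on log2(TPM + 1), and the same difference in MIA-PaCa2 was subtracted from it. TPM, as which the deposited values were read, is an abundance scaled for transcript length and library size. The result is called the line difference below, and ESRP1 and ESRP2 each gave 1 line difference per gene. A positive value means that the level with ESRP, relative to control, was higher in PANC-1 than in MIA-PaCa2. Genes entered with a coding (NM) transcript and at least 5 TPM in 2 or more libraries, which 10757 of 27408 genes in the table did, out of 19349 with a coding transcript. Of these, 9271 reached 5 TPM in a library of both lines, 606 in MIA-PaCa2 alone and 880 in PANC-1 alone. Just inside the limit, the second highest library was at 5.00 TPM for LRRC23 and ATP10D, and just outside it was at 4.995 TPM for CRIPT and ZNF618.

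There were 6 libraries, 1 for each line with the LPCX control, with ESRP1 overexpressed or with ESRP2 overexpressed, and all 6 cultures had medium with 10% fetal bovine serum. The treatment label holds only a dash in all of them, and whether a line was 1 clone or a pool of cells is not given in the sources used here. Both line differences use the same 2 LPCX libraries, so they are not independent of each other, and their values are given side by side. With 1 library per line and construct, a line difference for 1 construct has no replicate check and no p-value.

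ESRP1 and ESRP2, the epithelial splicing regulatory proteins, are RNA-binding paralogs that direct the choice of alternative exons in epithelial cells. They bind GU-rich motifs near a regulated exon, and where they bind relative to the exon decides whether it is included or skipped. Their known targets include receptors, adhesion molecules and regulators of actin and of vesicle transport, whose exons switch when epithelial cells take on mesenchymal features.

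The introduced genes were read first. ESRP1 was at 0.0781, 367 and 0.125 TPM in the LPCX, ESRP1 and ESRP2 libraries of MIA-PaCa2, and at 0.261, 491 and 0.172 TPM in PANC-1. ESRP2 was at 0.0704, 0.106 and 197 TPM in MIA-PaCa2, and at 34.8, 37.7 and 308 TPM in PANC-1. Each introduced gene was highest in the libraries labelled with it, and PANC-1 held ESRP2 in all 3 of its libraries while MIA-PaCa2 did not. The ESRP1 line difference of ESRP1 was 0.19, which turned to -0.60 with a pseudocount of 0.1 TPM, and the ESRP2 line difference of ESRP2 was -4.42, the farthest of any gene for that construct. The lines therefore differed in ESRP2 with LPCX already, and the part of this in the results was not tested.

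The 7 coding exons below are examples from the splicing results, chosen after their values were seen. Coding target exons with positive line differences for both constructs, such as those of MBNL1 and EPB41 given further below, are not among them. The 7 exons are shown first, on GRCh38 and from GENCODE release 29. Each exon is in capitals, with 15 bases of each neighbouring exon in the spliced transcript in lower case. With either construct, the exons of SLK, ENAH and FNIP1 differed less from control in PANC-1 than in MIA-PaCa2. Those of DNM2 and NUMB were more included in PANC-1 with LPCX already. The CD44 exon shown and that of MYOF differed from control by about the same number of percentage points in both lines. Some other CD44 exons, given further below, did not. All 7 exons have a length divisible by 3.
SLK, chr10:104010816-104010908, plus strand: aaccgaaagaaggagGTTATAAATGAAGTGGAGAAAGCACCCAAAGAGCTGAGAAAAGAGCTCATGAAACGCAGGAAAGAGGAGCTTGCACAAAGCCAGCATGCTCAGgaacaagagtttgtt
ENAH, chr1:225504991-225505053, minus strand: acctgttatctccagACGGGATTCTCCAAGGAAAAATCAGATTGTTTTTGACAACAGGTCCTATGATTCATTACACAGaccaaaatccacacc
FNIP1, chr5:131710578-131710661, minus strand: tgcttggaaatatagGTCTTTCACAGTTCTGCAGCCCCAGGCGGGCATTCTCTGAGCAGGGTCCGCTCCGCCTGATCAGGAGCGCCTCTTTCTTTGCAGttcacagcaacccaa
DNM2, chr19:10808569-10808580, plus strand: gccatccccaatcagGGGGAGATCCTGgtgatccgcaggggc
NUMB, chr14:73316390-73316422, minus strand: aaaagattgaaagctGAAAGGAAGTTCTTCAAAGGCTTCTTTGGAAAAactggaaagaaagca
CD44, chr11:35208105-35208206, plus strand: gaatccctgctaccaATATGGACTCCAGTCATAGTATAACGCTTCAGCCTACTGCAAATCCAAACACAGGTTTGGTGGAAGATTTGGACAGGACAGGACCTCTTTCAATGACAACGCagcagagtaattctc
MYOF, chr10:93392917-93392955, minus strand: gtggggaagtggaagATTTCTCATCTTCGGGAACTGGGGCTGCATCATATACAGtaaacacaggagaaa

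The depth of the libraries is unknown, since TPM keeps no read counts. Between 10578 and 10932 genes reached 5 TPM per library. Of 10 markers of pancreatic duct epithelium, the keratins KRT8, KRT18 and KRT19 and the transcription factor SOX9 were at 99.7 TPM or more in every library, while CFTR did not exceed 0.0130 TPM. EPCAM was listed at 0 and CDH1 did not exceed 0.173 TPM in MIA-PaCa2, while the claudin CLDN4 was at 89.1 TPM or more there, so the epithelial adhesion markers did not share 1 state in that line. The summed level of 10 acinar and islet markers was 0 in MIA-PaCa2 and 0.285 to 0.729 TPM in PANC-1, with 6 of the 10 at 0 in all libraries. Of the 10 fibroblast and endothelial markers, COL1A2 made up most of a sum of 126 to 135 TPM in MIA-PaCa2, against 0.587 to 0.971 TPM in PANC-1, and 10 neuronal markers summed to 273 to 304 and 268 to 349 TPM, most of it TUBB3. The 10 blood cell markers, HBB among them, summed to 28.5, 605 and 29.6 TPM in MIA-PaCa2, against 297 to 366 TPM in PANC-1, where CD68 made up most of it. The MIA-PaCa2 ESRP1 library stood apart by the adult globins HBA1, HBA2 and HBB, which together had 1575 TPM there and at most 4.07 TPM in each of the other libraries. The leukocyte marker PTPRC was at 0.563 TPM in that library. Globins are not among the 10757 genes. The ESRP1 line difference uses that library and cannot be formed without it, while the ESRP2 line difference does not use it. The part of the globin signal in any result was not tested.

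Most genes differed little between the lines in their response. The line difference had a median of 0.05 for either construct and an SD over genes of 0.23 for ESRP1 and 0.29 for ESRP2. The difference between these line differences, in which no LPCX library takes part, had a median of 0.00 and an SD of 0.27. The SD of the line differences was thus close to that of the gap between the constructs, and this gap was at least 2-fold for 70 genes (0.651%). Positive values made up 60.7% of genes for ESRP1 and 59.3% for ESRP2. With the libraries rescaled by median ratios, the median over all genes was 0.01 for either construct, so most of the shift above 0 depends on the scaling.

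**Figure D1:**
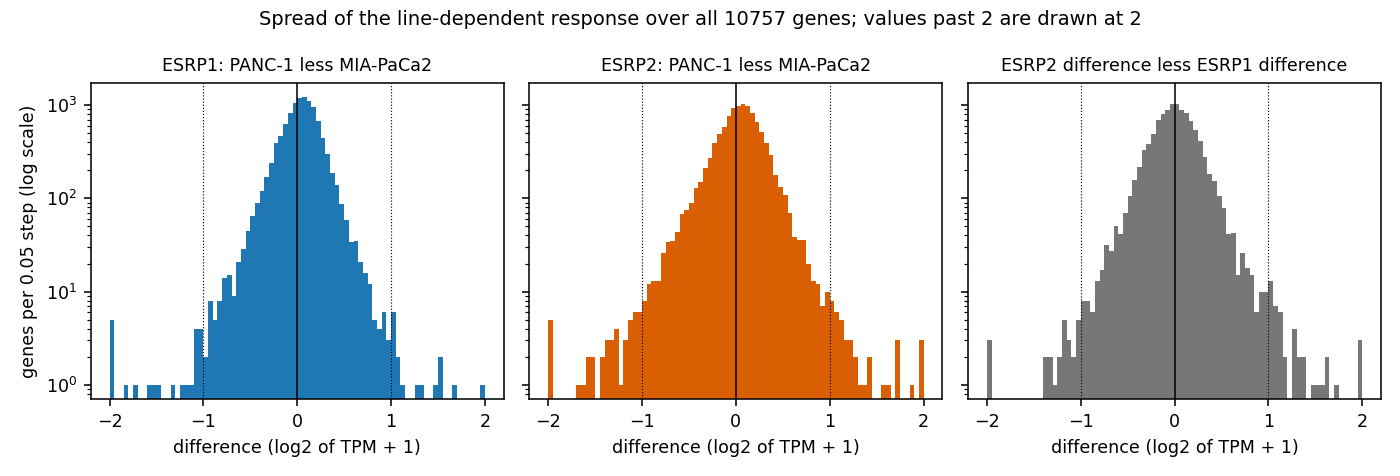
Number of genes (log axis) by line difference on log2(TPM + 1), for ESRP1, for ESRP2 and for the ESRP2 value less the ESRP1 value. Dotted lines mark 2-fold, and the 3 distributions have SDs of 0.23, 0.29 and 0.27 over 10757 genes.

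A line difference of at least 2-fold was found with ESRP1 for 38 genes, 0.353% of those tested, and with ESRP2 for 84 genes, 0.781%. The ESRP1 genes divided into 16 higher (0.149%) and 22 lower (0.205%) in PANC-1, the ESRP2 genes into 40 (0.372%) and 44 (0.409%). Of the 22 ESRP1 genes lower in PANC-1, 16 differed from control by 0.5 log2 units or more in MIA-PaCa2 and by less than that in PANC-1. Of the 16 higher genes, 11 did so in PANC-1 and not in MIA-PaCa2. With ESRP2, 19 of the 40 higher genes did so in MIA-PaCa2 alone, 8 in PANC-1 alone and 12 in both lines in opposite directions. Of the 44 lower genes these numbers were 16, 19 and 8. Among genes that average under 10 TPM, 1.19% passed 2-fold with ESRP1 and 1.89% with ESRP2, against 0.0590% and 0.767% of genes at 100 TPM or more.

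A test was possible only with the 2 ESRP libraries of a line taken as a pair. In limma, with the ESRP1 and ESRP2 libraries of each line as samples of ESRP, 0 of 10757 genes (0%) had an adjusted p under 0.05 for the line difference. At an unadjusted p under 0.05 there were 447 genes (4.16%), 271 higher (2.52%) and 176 lower (1.64%) in PANC-1. This fit has 2 residual degrees of freedom, which hold the differences between the paralogs as well as library noise. Leaving out the MIA-PaCa2 ESRP1 library takes the spread of the fit from the PANC-1 pair alone, so counts from that fit are not given. The lowest adjusted p in limma with all libraries was 0.44, for GPR75-ASB3. P-values measure only the spread between single libraries, and the genes below are described by their values.

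Genes are named by the smaller of their 2 line differences, taken where both had the same sign. Those higher in PANC-1 included receptors and a regulator of growth signalling. CXCR4, the receptor of the chemokine CXCL12, was at 26.8, 24.7 and 10.1 TPM in the LPCX, ESRP1 and ESRP2 libraries of MIA-PaCa2, and at 1.74, 4.42 and 5.81 TPM in PANC-1. Both PANC-1 ESRP libraries lay above their control, both MIA-PaCa2 ESRP libraries below theirs, and the lines did not overlap. The CXCR4 line difference was 1.09 with ESRP1 and 2.63 with ESRP2, and limma gave a mean of 1.86 (SE 0.66, adjusted p = 0.97). In bulk RNA, fewer cells that express a gene and less RNA per cell cannot be told apart.

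DEPTOR, an inhibitor of the kinase mTOR, was at 6.59, 5.78 and 3.15 TPM in MIA-PaCa2 and at 4.27, 8.66 and 7.94 TPM in PANC-1, again in the order LPCX, ESRP1, ESRP2, which holds from here on. MIA-PaCa2 was the higher line with LPCX and PANC-1 with either construct, for line differences of 1.04 and 1.63. ROR1, a receptor tyrosine kinase of the WNT5A pathway, was at 6.85, 5.06 and 1.80 TPM in MIA-PaCa2 against 11.1, 13.9 and 13.0 TPM in PANC-1. Its line differences of 0.68 and 1.70 came mostly from the MIA-PaCa2 ESRP2 library, the lowest of the 6. MEST, an imprinted gene of the hydrolase family, had the same shape, with 30.5, 25.1 and 13.8 TPM in MIA-PaCa2 and 35.4, 47.9 and 45.3 TPM in PANC-1. The MEST line differences were 0.70 and 1.43.

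Tubulins and other genes were more even between the constructs. TUBB2B, a beta-tubulin, was at 72.8, 59.4 and 61.5 TPM in MIA-PaCa2 and at 62.5, 91.5 and 93.4 TPM in PANC-1. All PANC-1 ESRP values exceeded all MIA-PaCa2 values, and the line differences were 0.83 and 0.81, with a limma mean of 0.82 (SE 0.11, adjusted p = 0.70). The tubulin TUBB4A, above 5 TPM in MIA-PaCa2 alone, was at 71.5, 66.0 and 47.8 TPM there and at 1.33, 3.08 and 2.47 TPM in PANC-1. Its line differences were 0.92 and 1.15, on a level in PANC-1 near the pseudocount of 1 TPM. OSBPL3, an oxysterol-binding protein and an ESRP splicing target, was at 31.6, 28.4 and 41.6 TPM in MIA-PaCa2 and at 5.96, 11.4 and 13.6 TPM in PANC-1. Its line differences were 0.98 and 0.68, since both PANC-1 ESRP libraries were well above their control. NAA38, a subunit of the NatC acetyltransferase, had line differences of 0.70 and 0.74, and DPCD, a gene linked to cilia, 0.69 and 0.73.

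ANKRD1, a nuclear cofactor induced by YAP, was expressed in PANC-1 alone, at 2.62, 7.80 and 8.16 TPM, against 0.145 to 0.199 TPM in MIA-PaCa2. Both ESRP libraries of PANC-1 were above their control, and the line differences were 1.30 and 1.40. CREB3L1, a membrane-bound transcription factor, was at 13.5, 9.54 and 8.66 TPM in MIA-PaCa2 and at 1.97, 3.09 and 3.57 TPM in PANC-1, lower with ESRP in one line and higher in the other. The values of CREB3L1 were 0.92 and 1.20. C4orf48, a small secreted protein gene, had 1.67 and 1.55 at no more than 6.91 TPM in any library, and the histone gene HIST1H3C 1.51 and 1.09. HIST1H3C was at 0.315, 2.27 and 1.39 TPM in PANC-1, near the pseudocount, and with 0.1 TPM its values were 2.735 and 2.10. LOC100129216 had 1.499 and 1.71. Its symbol was counted with those of readthroughs and multi-copy genes, whose reads are hard to place.

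**Figure D2:**
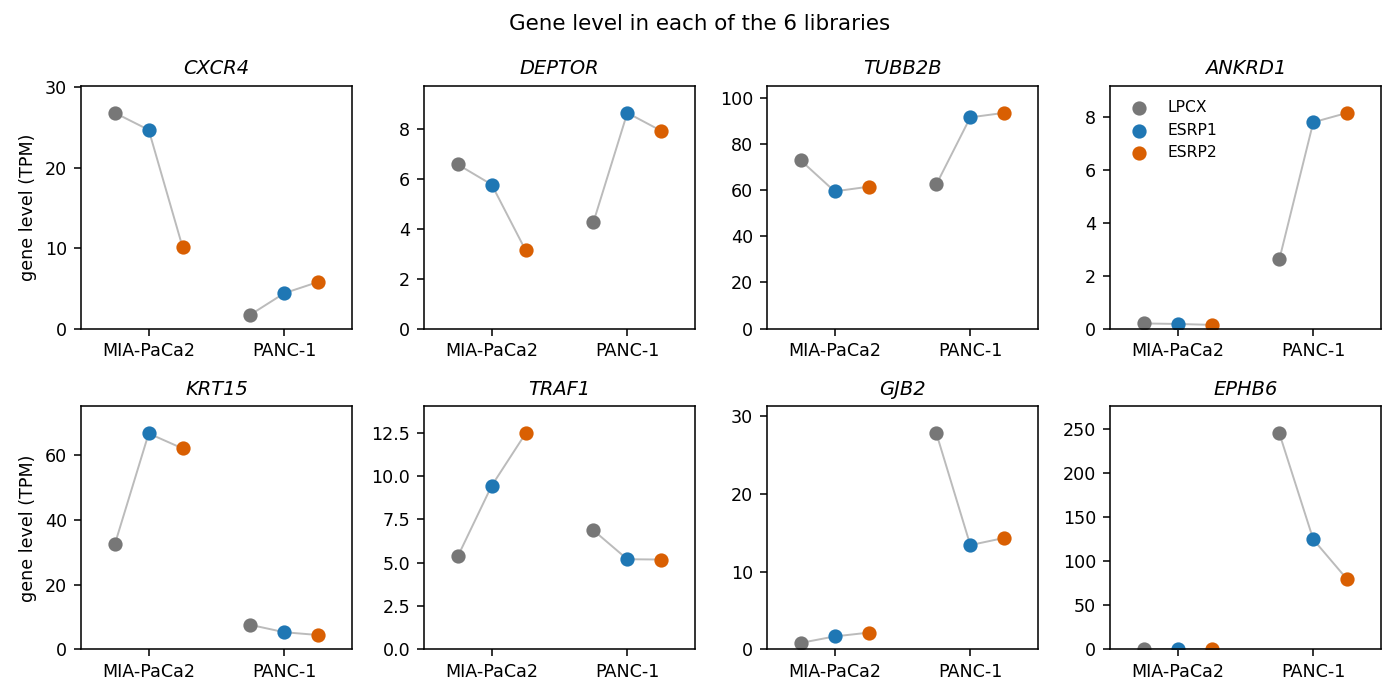
Level in TPM (linear axis from 0) of 8 genes in each library, 1 point per library, with lines that only join the libraries of 1 cell line. The top row holds genes with a higher response in PANC-1 (CXCR4 at 26.8 to 10.1 TPM in MIA-PaCa2 and 1.74 to 5.81 TPM in PANC-1) and the bottom row genes with a lower one (KRT15 at 32.5 to 66.8 and 7.55 to 4.41 TPM).

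Among the genes lower in PANC-1 were some known from squamous and basal epithelium. KRT15, a keratin of basal epithelial cells, was at 32.5, 66.8 and 62.1 TPM in MIA-PaCa2 and at 7.55, 5.28 and 4.41 TPM in PANC-1. It was higher with either construct in MIA-PaCa2 and lower in PANC-1, with no overlap between lines. The line differences were -1.46 and -1.58, and limma gave -1.52 (SE 0.19, adjusted p = 0.70). SFN, the stratifin of squamous epithelium, was at 7.31, 19.5 and 14.4 TPM in MIA-PaCa2 and at 197, 209 and 218 TPM in PANC-1. Its line differences of -1.22 and -0.74 came from MIA-PaCa2, since the 3 PANC-1 values lay close together. GJB2, the gap junction protein connexin 26, was at 0.821, 1.66 and 2.14 TPM in MIA-PaCa2 and at 27.8, 13.4 and 14.3 TPM in PANC-1. GJB2 was lower with either construct in PANC-1, and its line differences were -1.54 and -1.70.

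Signalling and matrix genes made up others of the lower group. TRAF1, an adaptor of TNF receptors and a target of NF-kB, was at 5.36, 9.44 and 12.5 TPM in MIA-PaCa2 and at 6.87, 5.20 and 5.18 TPM in PANC-1. With LPCX the lines were near each other, and with either construct MIA-PaCa2 was the higher, for line differences of -1.06 and -1.43. HAS3, a hyaluronan synthase, was at 9.51, 33.7 and 11.1 TPM in MIA-PaCa2 and at 65.2, 46.0 and 44.0 TPM in PANC-1. The MIA-PaCa2 ESRP1 library, which holds the globins, was alone high in that line, and the values of HAS3 were -2.22 with ESRP1 and -0.76 with ESRP2. When each ESRP library was left out in turn, HAS3 was the 1 gene that limma called, without MIA-PaCa2 ESRP2 (estimate -2.25, SE 0.12, adjusted p = 0.0209). That fit leaves 1 ESRP library of MIA-PaCa2, which is assumed to vary like the PANC-1 pair, and this is the library with the high HAS3 value. EPHB6, an ephrin receptor without kinase activity, was at 245, 124 and 79.2 TPM in PANC-1 and at most 0.184 TPM in MIA-PaCa2. Its line differences of -1.06 and -1.52 thus rest on PANC-1.

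S100A16, a calcium-binding protein, was at 48.7, 29.9 and 20.1 TPM in PANC-1 and between 165 and 194 TPM in MIA-PaCa2, for -0.88 and -1.20. CNIH3, an auxiliary subunit of AMPA receptors, was at 8.38, 3.60 and 2.19 TPM in PANC-1 and between 41.8 and 48.9 TPM in MIA-PaCa2, for -0.81 and -1.40. In both genes the PANC-1 ESRP libraries were below their control while MIA-PaCa2 stayed near its own. SERINC5, a membrane protein that restricts retroviruses, had -0.73 and -0.94, and the sulfotransferase SULT1A1 -0.76 and -1.17. The histone gene HIST1H4E had -1.04 and -2.38, and ELMOD1 -1.32 and -1.15. ELMOD1 was at 0.549, 1.48 and 1.48 TPM in MIA-PaCa2, near the pseudocount, and with 0.1 TPM its values were -1.996 and -1.805.

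Other far values belong to genes whose reads are hard to place. GPR75-ASB3, a readthrough of neighbouring genes, was listed at 0 TPM in MIA-PaCa2 LPCX and at 7.01 and 7.65 TPM with ESRP1 and ESRP2, against 0.539 to 1.05 TPM in PANC-1. Its line differences were -3.31 and -3.01. CHURC1-FNTB, a readthrough, had -1.57 and -1.37, while FNTB, the farnesyltransferase subunit with which it shares exons, had 0.69 and 1.10. SERF1A and SERF1B, near-identical copies, had opposite values of -2.34 and 2.56 for SERF1A and of 1.53 and -1.33 for SERF1B. Reads shared by such copies and readthroughs can be split between them, so their values are uncertain, as are those of U2AF1L5 (2.06 and -0.10) and of the readthrough RPL36A-HNRNPH2 (-1.85 and 0.57).

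**Figure D3:**
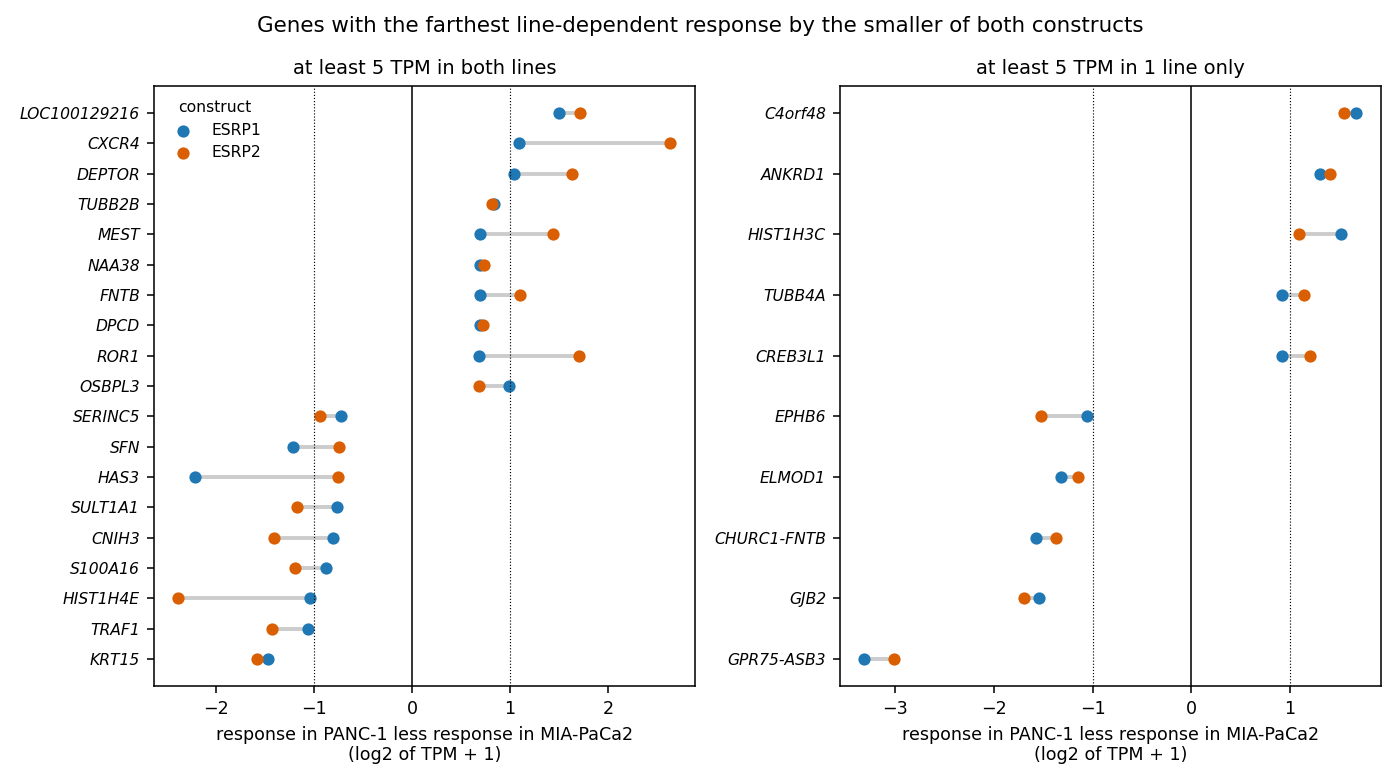
Line difference on log2(TPM + 1) for the 10 highest genes and 9 of the 10 lowest that reach 5 TPM in both lines (left) and the 5 highest and 5 lowest that reach it in 1 line (right), ranked by the smaller of both constructs. Each gene has 1 point per construct, dotted lines mark 2-fold, and the ESRP1 and ESRP2 points lie within 0.25 of each other for KRT15 and TUBB2B and far apart for CXCR4 and HAS3.

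Other genes were among the farthest for 1 construct. With ESRP2, CLDN11, a tight junction claudin, was at 346, 406 and 207 TPM in MIA-PaCa2 and at 3.79, 5.21 and 8.60 TPM in PANC-1, for line differences of 0.14 and 1.74. C15orf48, a mitochondrial subunit homolog, had 0.22 and 1.85, and CARD16, a regulator of caspase-1 listed at 0 in all PANC-1 libraries, had -0.41 and 2.41. TNS4, a focal adhesion protein, was at 10.1, 17.2 and 30.7 TPM in MIA-PaCa2 and at most 0.417 TPM in PANC-1, for -0.56 and -1.63. CES1, a carboxylesterase, was at 21.3, 13.3 and 4.42 TPM in PANC-1 and at most 0.0487 TPM in MIA-PaCa2, for -0.57 and -1.97. In TNS4 and CES1 the ESRP2 library was the farthest from control in the line that expressed the gene, and in CLDN11 it was so in both lines, in opposite directions. With a pseudocount of 0.1 TPM the ESRP1 values were -0.27 for TNS4 and -0.10 for CES1. STC1, a secreted glycoprotein hormone, differed in sign, with 136, 211 and 83.1 TPM in MIA-PaCa2 against at most 0.374 TPM in PANC-1 and values of -0.74 and 0.60. DMC1, a recombinase of meiosis, was above control with either construct in PANC-1 and had 1.26 and 0.81. The histone gene HIST1H2AJ, listed at 0 TPM in PANC-1 ESRP1, had -2.28 and -0.54.

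Gene lists of pathways were described by their counts and medians, beside a median of 0.05 for all genes with either construct. Of all genes, 60.7% were positive with ESRP1 and 59.3% with ESRP2. At an unadjusted p under 0.05 in limma, 2.52% of all genes were higher and 1.64% lower in PANC-1. The counts of every list below stand beside these shares. Genes of cholesterol synthesis had mostly positive values, with a median line difference of 0.15 for ESRP1 and 0.30 for ESRP2. Of 24 measured members, 20 were positive with ESRP1 and all 24 with ESRP2, none reached 2-fold, and limma called 0, with 2 at an unadjusted p under 0.05, both higher. FDPS, which makes farnesyl diphosphate, was at 317, 315 and 279 TPM in MIA-PaCa2 and at 229, 300.3 and 289 TPM in PANC-1, for 0.39 and 0.51. EBP, a sterol isomerase, was at 86.4, 100.3 and 74.4 TPM in MIA-PaCa2 and at 109, 143 and 155 TPM in PANC-1, for 0.17 and 0.71. Both enzymes were above control in the PANC-1 ESRP libraries and below it in MIA-PaCa2 ESRP2. The other ends of the list were MVK, mevalonate kinase, at -0.27 and 0.18, and IDI1, an isomerase of isoprenoid units, at -0.05 and 0.15. In fatty acid synthesis, 11 and 9 of 14 members were positive, with FADS2, a fatty acid desaturase, at 0.54 and 0.46.

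Genes of G1/S and replication had medians of 0.13 and 0.20 and 31 of 40 members positive with each construct. Limma called 0 of the 40, with 3 at an unadjusted p under 0.05, all higher. MCM6, a subunit of the replicative helicase, was at 131, 128 and 127 TPM in MIA-PaCa2 and at 49.6, 64.3 and 65.0 TPM in PANC-1, for 0.40 and 0.43. Its partner MCM3 was at 228, 242 and 250.0 TPM in MIA-PaCa2 and at 179, 246 and 240 TPM in PANC-1, for 0.37 and 0.28. Both helicase subunits were near control in MIA-PaCa2 and above it in PANC-1, while the replication factor GINS2 (-0.23 and -0.01) and the polymerase POLE (0.10 and -0.33) were at the low end. Mitosis genes had medians of 0.08 and 0.10, with 26 and 29 of 35 positive, and genes of hypoxia and glycolysis 0.06 and 0.16, with 27 and 26 of 34.

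Genes of NF-kB, cytokines and chemokines had mostly negative values, with medians of -0.25 and -0.32. Positive values were found for 4 of 22 members with ESRP1 and 2 of 22 with ESRP2, and limma called 0, with 4 lower and 1 higher at an unadjusted p under 0.05. CXCL5, a neutrophil chemokine, was at 166, 235 and 335 TPM in MIA-PaCa2 and at most 0.0683 TPM in PANC-1, for -0.45 and -0.91. These values depend on the pseudocount of 1 TPM, and with 0.1 TPM they were -0.08 and -0.26. CXCL1, of the same family, was at 123, 104 and 143 TPM in MIA-PaCa2 and at 3.74, 2.68 and 1.24 TPM in PANC-1, for -0.13 and -1.30. Of the chemokines named, CXCL5 was above control with either construct in MIA-PaCa2 and CXCL1 below it in PANC-1. The highest members were CXCR4 and IL11, a cytokine of the IL-6 family at 0.28 and 0.10. The members with at least 5 TPM in every library were 9, with medians of -0.24 and -0.24.

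**Figure D4:**
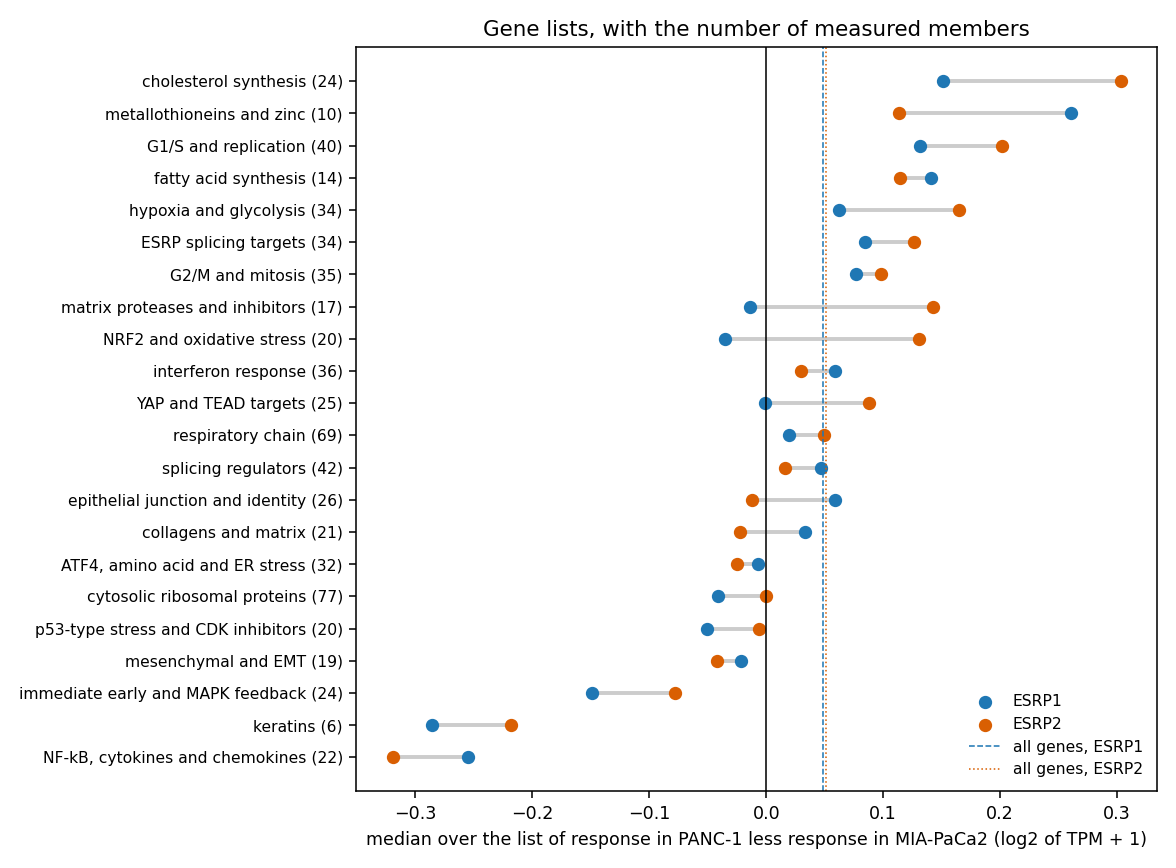
Median line difference of 22 gene lists (log2 of TPM + 1), 1 point per construct, with the number of measured members in brackets and dashed or dotted lines at the median of all 10757 genes, 0.05 for either construct. Cholesterol synthesis lies at 0.15 and 0.30 and the NF-kB, cytokine and chemokine list at -0.25 and -0.32.

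Of 6 measured keratins, 1 was positive with ESRP1 and 2 with ESRP2, with medians of -0.29 and -0.22. KRT19, of simple epithelia, was at 234, 313 and 250.2 TPM in MIA-PaCa2 and at 502, 417 and 366 TPM in PANC-1, for -0.68 and -0.55. KRT8 was at -0.06 and 0.00 and KRT80 at 0.22 and 0.16, so the list did not share 1 direction. Of 24 immediate early and MAPK feedback genes, 5 and 11 were positive, with medians of -0.15 and -0.08, and AREG and HBEGF, ligands of the EGF receptor, at -0.74 and -0.54 and at -0.49 and -0.76. With a pseudocount of 0.1 TPM, AREG had -1.34 and -0.85. JUND, a subunit of AP-1, was at the other end with 0.47 and 0.83.

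Epithelial and mesenchymal genes had medians near that of all genes. Of 26 measured epithelial junction and identity genes, 16 and 13 were positive, with medians of 0.06 and -0.01. The 26 include the introduced gene ESRP2, at 0.06 and -4.42, the only member lower by 2-fold or more with ESRP2. CDH1, the epithelial cadherin, was at 3.89, 8.59 and 6.98 TPM in PANC-1 and at most 0.173 TPM in MIA-PaCa2, for 1.03 and 0.69. SPINT1, an inhibitor of membrane proteases, was at 5.49, 9.01 and 8.995 TPM in PANC-1 and at most 0.0368 TPM in MIA-PaCa2, for 0.57 and 0.62. These epithelial genes were above control in PANC-1 with either construct, and so was CDH2, the mesenchymal cadherin, at 32.4, 51.8 and 47.2 TPM in PANC-1 and at most 0.0212 TPM in MIA-PaCa2, for 0.63 and 0.53. CLDN4, a claudin, had -0.33 and -0.83. With a pseudocount of 0.1 TPM the ESRP1 values were 0.25 for SPINT1 and 0.40 for CDH2.

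Of 19 mesenchymal genes, 9 and 8 were positive, with medians of -0.02 and -0.04. CTGF, a matricellular target of YAP and TGF-beta, was at 0.981, 1.91 and 1.78 TPM in MIA-PaCa2 and at 118, 93.5 and 88.9 TPM in PANC-1, for -0.88 and -0.89. TGFBI, a matrix protein induced by TGF-beta, had -0.62 and -1.11. Of 21 collagens and matrix genes, 12 and 10 were positive, with medians of 0.03 and -0.02. Of these, the proteoglycan HSPG2 (-0.55 and -0.96) was at the low end, and COL1A1 (0.75 and 0.73) and COL18A1 (0.34 and 0.49) at the high end. YAP and TEAD targets as a list had medians of 0.00 and 0.09, with CTGF and ANKRD1 at opposite ends of it. Medians of the lists of interferon response, ATF4 and ER stress, NRF2, metallothioneins, p53-type stress, matrix proteases, splicing regulators, ribosomal proteins and respiratory chain lay between -0.05 and 0.26, and limma called 0 members of any list.

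The median line difference moved with transcript length, and in opposite ways for the constructs. Over 5 classes of length, from 177 to 1666 nucleotides in the shortest to 4979 to 30276 in the longest, the ESRP1 median was 0.01, 0.02, 0.05, 0.06 and 0.10. The ESRP2 median was 0.07, 0.07, 0.06, 0.04 and 0.02. Centring on length gave list medians of 0.14 and 0.28 for cholesterol synthesis and of -0.23 and -0.31 for NF-kB and cytokines.

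The levels of ESRP splicing targets, genes with exons known to be under ESRP control, were compared before their isoforms. All 34 passed the level limit, and the medians were 0.08 and 0.13. With each construct 24 were positive (70.6%), beside 60.7% and 59.3% of all genes. FGFR2, the receptor whose epithelial isoform depends on ESRP, was at 4.01, 4.73 and 4.30 TPM in MIA-PaCa2 and at 4.64, 10.9 and 8.14 TPM in PANC-1, for 0.88 and 0.61. GRHL1, an epithelial transcription factor, was at 3.21, 8.79 and 8.19 TPM in MIA-PaCa2 and at 6.68, 11.6 and 12.01 TPM in PANC-1, for -0.50 and -0.37. FGFR2 was near control in MIA-PaCa2 and above it in PANC-1, and GRHL1 was above control in both lines. INF2, whose exon is given further below, was at 115, 141 and 151 TPM in MIA-PaCa2. In PANC-1 INF2 was at 76.7, 69.2 and 68.9 TPM, for -0.45 and -0.55.

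Isoform shares were compared next, as the percentage of a gene's TPM in 1 transcript, for 12702 transcripts of 5898 genes with at least 5 TPM in every library. The line difference in share was at least 10 percentage points for 2604 transcripts with ESRP1 (20.5%) and 2809 with ESRP2 (22.1%). Its SD was 9.60 points for ESRP1, 10.2 for ESRP2, and 9.93 for the ESRP2 value less the ESRP1 value. On log2 odds, 0 of the 12702 (0%) were called by limma, and an unadjusted p under 0.05 was found for 679 (5.35%). The gap between the constructs was thus as wide as the line differences.

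Among 99 transcripts of 30 measured ESRP splicing targets, 26 passed 10 points with ESRP1 (26.3%) and 39 with ESRP2 (39.4%). Over all 12702 transcripts these shares were 20.5% and 22.1%. By gene, 13 of 30 targets (43.3%) held such a transcript with ESRP1 and 18 (60%) with ESRP2, against 24.2% and 26.5% of all 5898 genes. The shares by gene are not on an equal footing, since targets had more measured transcripts per gene. In targets the shift was mostly the larger one in MIA-PaCa2. Of target transcripts that moved by at least 10 points in a line, the shift in MIA-PaCa2 was larger for 39 of 50 with ESRP1 (78%) and 46 of 58 with ESRP2 (79.3%). Over all transcripts the shares were 56.1% and 57.2%. Transcripts of 1 gene share their total, so these counts are not of independent units.

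Cassette exons were read from the same transcripts. Inclusion is the TPM of the transcripts with an exon, divided by the TPM of these plus the ones that skip it, in percent. It could be computed for 1910 exons of 1302 genes, 49 of them in 21 target genes. At least 10 points were reached by 15.6% of all exons with ESRP1 and 16.4% with ESRP2. With ESRP1, 11 target exons (22.4%) had a line difference of -10 points or less and 1 (2.04%) of 10 points or more, beside 8.38% and 7.23% of all exons. With ESRP2 there were 17 (34.7%) and 2 (4.08%), beside 9.95% and 6.49%. The 1 higher target exon with ESRP1 was a 102-nucleotide coding exon of EPB41, at 14.6 and 8.08 points. Of the 49 target exons, 36 were negative with ESRP1 and 30 with ESRP2, beside 54.8% and 55.9% of all exons. Exons of 1 gene can share transcripts, as 5 of the CD44 exons do.

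In SLK, ENAH and FNIP1, inclusion differed less from control in PANC-1, although it was not higher there with LPCX by more than a few points. The exon of SLK, a kinase of the cytoskeleton, was included at 0.827%, 45.6% and 43.7% in MIA-PaCa2 and at 0.999%, 17.8% and 15.7% in PANC-1. With LPCX the lines were about equal, and both PANC-1 ESRP libraries stayed far below both MIA-PaCa2 ESRP libraries, for line differences of -28.0 and -28.2 points. ENAH, an actin regulator whose exon marks epithelial cells, was at 2.40%, 65.6% and 57.1% in MIA-PaCa2 against 4.45%, 41.2% and 27.9% in PANC-1. Its line differences were -26.5 and -31.3 points. FNIP1, a partner of folliculin, was at 41.0%, 80.6% and 79.3% in MIA-PaCa2 and at 21.8%, 40.4% and 33.7% in PANC-1, for -20.9 and -26.3 points. In all 3 exons both PANC-1 ESRP libraries were below both MIA-PaCa2 ESRP libraries, and FNIP1 was lower in PANC-1 with LPCX too.

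Other exons were already more included with LPCX in PANC-1 than in MIA-PaCa2. The reason for this was not tested. INF2, a formin, included a 57-nucleotide exon (chr14:104715284-104715340) at 17.3%, 87.3% and 88.3% in MIA-PaCa2 and at 86.4%, 96.1% and 93.6% in PANC-1. The line differences of INF2 were -60.3 and -63.7 points, the farthest of any exon by the smaller of both, and its PANC-1 control was at the level of the MIA-PaCa2 ESRP libraries. ITGA6, the integrin chain alpha 6, included a 130-nucleotide exon (chr2:172501772-172501901) at 39.0%, 78.9% and 79.5% in MIA-PaCa2 and at 88.7%, 96.8% and 96.7% in PANC-1, for -31.7 and -32.5 points. NF2, the tumour suppressor merlin, included a 45-nucleotide exon (chr22:29683020-29683064) at 48.0%, 87.3% and 90.4% and at 83.8%, 93.4% and 92.1%, for -29.8 and -34.1 points. In all 3 exons PANC-1 was high in every library, and MIA-PaCa2 was lowest with LPCX.

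The exon of DNM2, dynamin 2 of endocytosis, was at 15.3%, 48.9% and 74.0% in MIA-PaCa2 against 67.1%, 86.3% and 89.97% in PANC-1. Here all PANC-1 values but that of LPCX exceeded all MIA-PaCa2 values, and the line differences were -14.5 and -35.9 points. NUMB, an inhibitor of Notch, had its exon at 23.6%, 50.1% and 54.6% in MIA-PaCa2 and at 39.98%, 54.7% and 48.6% in PANC-1, for -11.7 and -22.3 points, so the lines lay within a few points of each other with either construct. BAIAP2, a membrane-bending protein, included a 46-nucleotide exon at 7.97%, 38.0% and 86.1% in MIA-PaCa2 and at 31.9%, 52.0% and 66.2% in PANC-1. With ESRP1 its line difference was -9.90 points and with ESRP2 it was -43.8 points. MAP3K7, the kinase TAK1, had an 81-nucleotide exon at 31.2%, 40.7% and 68.9% and at 12.5%, 17.5% and 29.2%, for -4.48 and -21.0 points. In both of these the MIA-PaCa2 ESRP2 library was the highest of the 6. KIF13A, a kinesin, had a 39-nucleotide exon at 36.4%, 44.2% and 54.5% in MIA-PaCa2 and at 54.3%, 47.5% and 54.0% in PANC-1, for -14.6 and -18.5 points.

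On log2 odds, which allow for the bounds of a percentage, the line differences kept their sign in the 5 exons that follow. They were -3.15 and -3.90 for INF2, -0.79 and -0.89 for ITGA6, -1.47 and -2.14 for NF2, -2.03 and -2.13 for SLK and -2.13 and -2.46 for ENAH. The order of the exons by size was not that in percentage points. Over all 49 target exons the median was -0.38 and -0.45, against -0.07 and -0.11 over all exons.

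**Figure D5:**
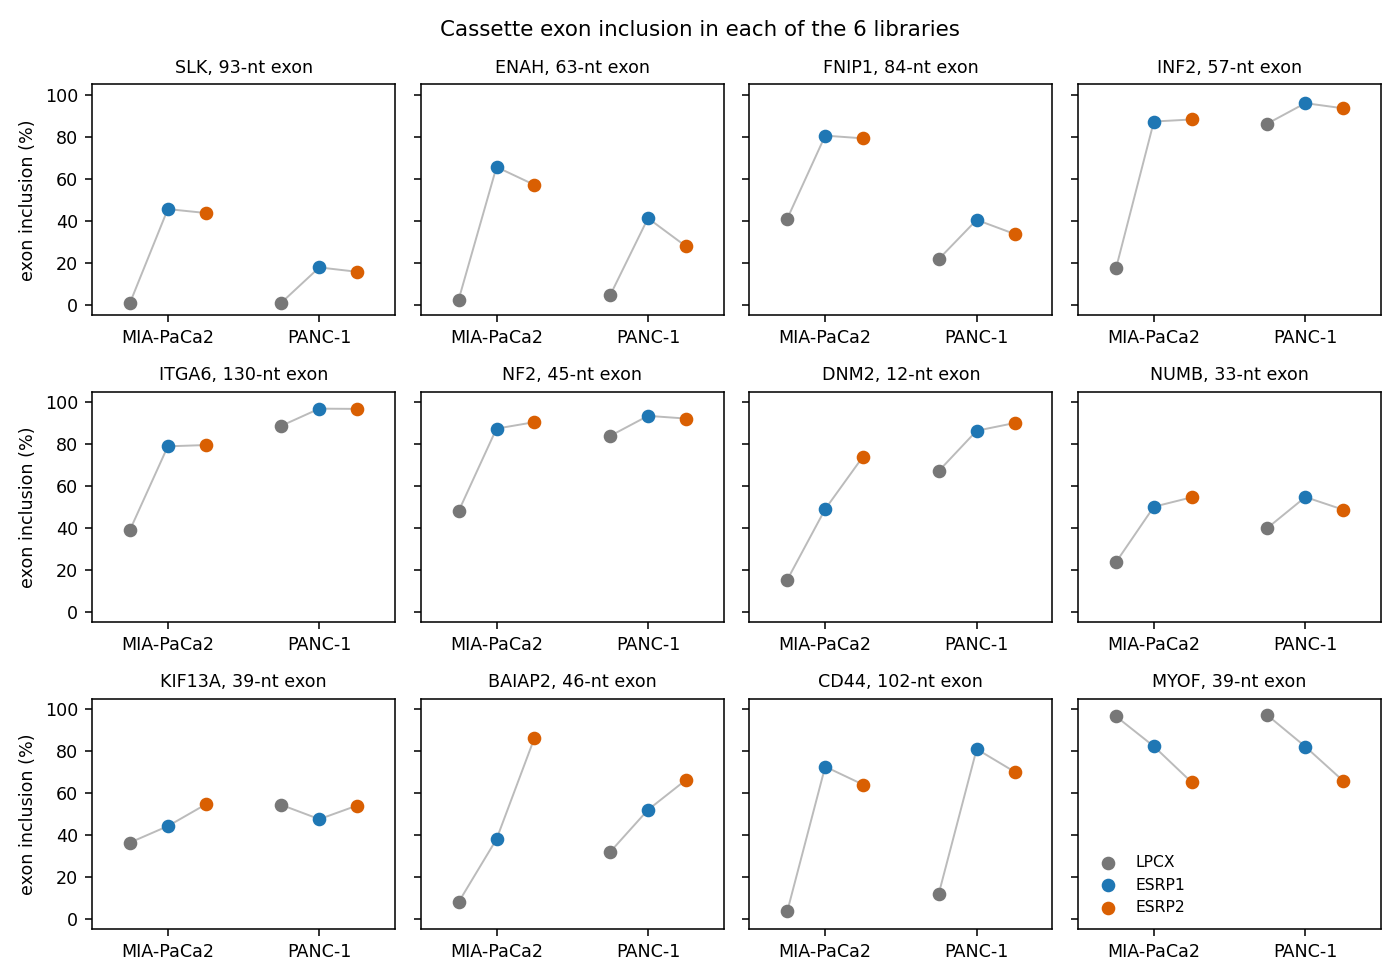
Inclusion (%) of 12 cassette exons of ESRP splicing targets in each library, 1 point per library, with lines that only join the libraries of 1 cell line. SLK and ENAH are at 4.45% or less with LPCX in both lines and lower in PANC-1 with the constructs, INF2, ITGA6 and NF2 are at 83.8% or more in PANC-1 with LPCX, and CD44 and MYOF have line differences of -2.26 to 0.20 points.

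Other target exons had line differences nearer 0 in percentage points, which was not always so on log2 odds. The CD44 exon was included at 3.67%, 72.6% and 64.0% in MIA-PaCa2 and at 12.05%, 80.9% and 70.1% in PANC-1, for -0.01 and -2.26 points. CD44 is the hyaluronan receptor, and its inclusion was far above control with either construct in both lines. On log2 odds the line differences of this exon were -0.95 and -1.22, past those of ITGA6, since inclusion with LPCX was higher in PANC-1. The CD44 exons of 114 to 132 nucleotides, which share transcripts, had 8.73 and 7.05 points and 0.19 and 0.20 on log2 odds. Those of 90 and 204 nucleotides had -0.01 and -0.21 points with ESRP1 and -2.26 and -2.14 with ESRP2. In share, the CD44 transcript NM_001001390 had -8.73 and -9.31 points, and NM_001001391 had 1.25 and 1.03. MYOF, a membrane repair protein, had its exon at 96.5%, 82.2% and 65.1% in MIA-PaCa2 against 97.0%, 82.1% and 65.7% in PANC-1, for -0.62 and 0.20 points and -0.19 and -0.13 on log2 odds. RAC1, a GTPase of cell motility, had a 57-nucleotide exon at 0.469%, 6.36% and 16.9% in MIA-PaCa2 and at 20.2%, 25.0% and 42.7% in PANC-1, for -1.16 and 6.03 points. On log2 odds the values of RAC1 were -2.04 and -2.35, so the ESRP2 direction turned and the size was close to that of SLK. MBNL1, itself a splicing regulator, had a 36-nucleotide exon at 69.2%, 53.4% and 45.0% in MIA-PaCa2 against 84.0%, 77.7% and 73.1% in PANC-1, for 9.50 and 13.3 points and 0.38 and 0.51 on log2 odds. The share of the CTNND1 transcript NM_001085460, of the catenin p120, was 41.4%, 11.2% and 18.2% in MIA-PaCa2 against 33.0%, 5.09% and 12.2% in PANC-1, for 2.36 and 2.42 points. On log2 odds the direction of this transcript turned, to -0.67 and -0.16.

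Transcripts of UAP1 and OSBPL3 lay outside the cassette exons above. UAP1, an enzyme of UDP-N-acetylglucosamine synthesis, had its transcript NM_003115 at 74.8%, 13.1% and 15.7% in MIA-PaCa2 and at 16.9%, 0.169% and 3.02% in PANC-1. PANC-1 with LPCX was already at the level that MIA-PaCa2 reached with the constructs, and the line differences were 44.9 and 45.2 points. On log2 odds they were -0.75 and 1.43, so the ESRP1 direction turned. Other UAP1 transcripts kept theirs. NM_001324116 had -29.2 and -27.5 points, and -2.31 and -2.19 on log2 odds. NM_001324117 had -13.0 and -15.6 points, and -2.84 and -3.15 on log2 odds. OSBPL3 had NM_145320 at 0.00%, 5.80% and 8.73% in MIA-PaCa2 and at 0.00%, 21.3% and 32.0% in PANC-1, for 15.5 and 23.3 points. This transcript of OSBPL3 was higher with the constructs in both lines, by more points in PANC-1, but its line differences on log2 odds were -0.34 and -0.10.

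Outside the targets, the farthest shares were in genes of low level. RAB40C, a GTPase, had NM_021168 at 68.0%, 13.8% and 29.3% in MIA-PaCa2 and at 6.15%, 23.6% and 43.0% in PANC-1, for 71.7 and 75.5 points, from a gene at 13.3 TPM in its lowest library. The lowest library of other genes of this group outside the targets, FOXO3, TRIM23, LFNG, ACYP2, PEX16, ST5 and RCAN3, was at 5.46 to 13.8 TPM. Their smaller line difference was between 48.4 and 57.3 points in size. The number of reads behind these shares is unknown.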

How the data were processed

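RNA from 6 cultures was sequenced as mRNA libraries, 1 per line and construct. The authors deposited an abundance signal per RefSeq transcript, and the submitters' processing notes name Salmon and GRCh38 without versions. No label or header names the unit. It was read as TPM because each deposited column sums to about 1000000 once repeated rows are dropped. Read counts were not analysed here, so depth and counting error are unknown. Columns were matched to libraries by header. The MIA-PaCa2 LPCX header is misspelt, and the MIA-PaCa2 ESRP2 header, written ESRP12, was assigned by elimination, so values of that library rest on this reading.

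Of 67792 rows, 8664 exact repeats were dropped, and 59128 transcripts were summed to genes. Line differences were formed on log2(TPM + 1). Both ESRP libraries of a line were tested together in limma 3.58.1 (R 4.3.3) with trend, terms for line, ESRP and their interaction, and Benjamini-Hochberg adjustment at 0.05. Shares covered transcripts that reached 10% of their gene in a library, and were tested as log2 odds after adding 0.5 TPM. Cassette exons came from 37800 RefSeq transcripts paired with GENCODE 29 models, in genes where these held at least 90% of TPM, with inclusion above 95% throughout or under 5% throughout left out, and exon log2 odds had an offset of 1 point. The limma script was tested on simulated data.

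Named genes were the 10 highest and 10 lowest by the smaller line difference where both constructs had 1 sign and both lines reached 5 TPM, the 5 and 5 from genes reaching it in 1 line, the 3 and 3 farthest per construct, up to 3 of opposite sign, ESRP1 and ESRP2, and the 2 list members farthest each way by the mean of both. Named transcripts were the 10 genes farthest by the smaller value and ESRP targets at 10 points or more with both constructs, and named exons the 8 farthest. The ESRP target exons and transcripts outside this rule were chosen after their values were seen. The members and lists were chosen with earlier results of these data known. Replicates from separate cultures were not labelled, so p-values measure only the spread between single libraries. Some items that this rule names are not reported here.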

Additional observations from a re-analysis of the deposited data

Results flagged for a closer look

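The 3 cassette exons below were less included with either construct in MIA-PaCa2 and more included in PANC-1, and in each case the difference was not tested. In line difference, 57 of all 1910 cassette exons reached 10 points or more with both constructs, and 71 reached -10 points or less. ZMAT3, an RNA-binding p53 target, had a 121-nucleotide untranslated exon (chr3:179071327-179071447) at 84.4%, 41.9% and 39.7% inclusion in the LPCX, ESRP1 and ESRP2 libraries of MIA-PaCa2, against 46.9%, 58.8% and 47.6% in PANC-1. With ESRP2 the PANC-1 value lay only 0.75 points above control. The smaller line difference of ZMAT3 was 45.47 points, with 5.13 to 8.64 TPM behind the exon, and read counts are unknown. PCCA, a subunit of propionyl-CoA carboxylase, had a 141-nucleotide coding exon (chr13:100515427-100515567) with a smaller line difference of 32.15 points. It was included at 93.8%, 80.0% and 85.9% in MIA-PaCa2 and at 68.1%, 100% and 92.3% in PANC-1, with 9.38 to 11.7 TPM behind it. ATRIP, the partner of the kinase ATR, had an 81-nucleotide coding exon (chr3:48464582-48464662) with a smaller line difference of 29.18 points. This exon was at 100%, 88.9% and 93.3% in MIA-PaCa2 and at 72.6%, 95.5% and 95.1% in PANC-1, with 11.2 to 15.1 TPM behind it.

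Adult globins, outside the genes compared, were high in the MIA-PaCa2 ESRP1 library alone. HBA1 had 336.3 TPM there and at most 3.84 TPM elsewhere, HBA2 669.9 and at most 2.94 TPM, and HBB 569.1 and at most 0.675 TPM. HBD, HBE1 and AHSP were listed at 0 in that library, and ALAS2, the erythroid enzyme of heme synthesis, had 0.734 TPM.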

How the results depend on the processing

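No paired analysis was possible because each line and construct has 1 library. Counts of genes past 2-fold depended on the treatment of low values and on the genes included. From 38 with ESRP1 and 84 with ESRP2, they came to 130 and 195 with a pseudocount of 0.1 TPM, 11 and 30 with 5 TPM, 9 and 31 with at least 5 TPM in every library, 120 and 169 with no filter, and 217 and 312 with non-coding genes included. Centring on transcript length, an alternative chosen after seeing the data, gave 31 and 75. Leaving out 1 ESRP library at a time leaves its line with 1. The spread in such a fit comes from the ESRP pair of the other line alone, so counts of genes from these fits are not compared. Without MIA-PaCa2 ESRP2 the limma estimate of HAS3 was -2.25.

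Transcript shares past the step came to 635 and 726 at 20 points and 883 and 985 in genes at 20 TPM or more, from 2604 and 2809. Exons came to 71 and 58 at 20 points and 96 and 104 at 20 TPM, from 298 and 314. Of 250 named line differences, 5 changed sign with a pseudocount of 5 TPM, 4 with median ratio scaling and 3 with 0.1 TPM. With length centring, 1 of 232 changed sign. Of the 61 among the 250 at 2-fold or more, 32 fell under it with a pseudocount of 5 TPM and 0 changed sign.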
